A study of Mus musculus with 60 samples.

Results

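The genes described here mark the leptomeninges, the thin arachnoid and pial membranes around the brain, and were followed through RNA-Seq of mouse brain. They are Ptgds, Slc6a13, Igf2, Dcn, Lum, Col1a1, Col1a2 and Aldh1a2. They were chosen by name, as entries with these gene symbols, and make up 8 of the 47597 gene entries measured in each library. All 8 were above 0 in all 60 libraries. Fibroblasts of the leptomeninges lay down fibrillar collagen and small leucine-rich proteoglycans, make retinoic acid, carry transporters of small solutes and secrete proteins into the cerebrospinal fluid. None of these genes is private to that cell type. Ptgds is also made by oligodendrocytes, Igf2 by the choroid plexus, and fibroblasts also sit in the choroid plexus stroma and along vessels.

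The libraries were total RNA of cortex or striatum of c57BL-6N mice aged 3 months, in 10 labelled groups of 6 (3 males and 3 females). In each tissue the groups were +/+, Δ12/+ and Δ12/Δ12 of the Δ12 line, in which a CRISPR deletion within exon 12 of Htt creates a new splice donor, and +/+ and KO/+ of the KO line, in which the same exon lost its normal donor. The KO line goes back to 1 founder with a failed repair, so its effect cannot be told apart from that founder's background. The authors deposited FPKM, the fragments of a gene divided by its length and by the size of the library, which here were rescaled by the median ratio over genes and are called levels.

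Libraries were split by Slc17a7, a glutamate transporter of cortical excitatory neurons: 30 libraries above an FPKM of 100 are called cortex-like (121 to 234) and the other 30 striatum-like (4.81 to 64.8). The class went against the labelled tissue in 30 of 60 libraries, and the sex-linked transcripts went against the labelled sex in 30. In only 16 of 30 labelled mice did both libraries have the same sex-linked transcript, while both lay in 1 class in all 30. All Δ12-line libraries were cortex-like except the 6 labelled female Δ12/Δ12, and all 24 KO-line libraries were striatum-like, so class and line cannot be told apart outside Δ12/Δ12. In 5 of 12 KO/+ libraries the Htt FPKM lay within or above the range of +/+. The label of each library was kept, and each comparison of alleles below is one of labels. Correlations were tested within each class, and differences between the classes are described without a test. Estimated depth was 12700000 to 19400000 fragments in cortex-like and 16400000 to 27500000 in striatum-like libraries. In all, 3 libraries stood apart in several of the 8 genes, namely cortex Δ12-line +/+ male 1, cortex Δ12-line +/+ female 1 and striatum KO-line +/+ male 1, and results that rest on them are also given without them. They were picked from the levels of these genes after the data were seen, so p-values without them are a description and not a test.

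Promoter sequences of Igf2 and Aldh1a2 are shown since the FPKM of Igf2 sums over transcripts from several starts, while Aldh1a2 has a single one in the table used. Each is the 250 bases before a RefSeq start (GRCm38.p6) in which no exon is annotated, and 5 of the 8 genes had an entry in that table. The Igf2 gene (chr7:142650766-142666816, reverse strand) has a start whose window holds 1 CCAAT and 2 GGGCGG motifs and another that holds none of the motifs searched. The window of Aldh1a2 (chr9:71215789-71296243, forward strand) has 1 CCAAT motif, 36 bases before the start. Capitals mark the motifs, also where they lie on the other strand.
Igf2, chr7:142657497-142657746, reverse strand: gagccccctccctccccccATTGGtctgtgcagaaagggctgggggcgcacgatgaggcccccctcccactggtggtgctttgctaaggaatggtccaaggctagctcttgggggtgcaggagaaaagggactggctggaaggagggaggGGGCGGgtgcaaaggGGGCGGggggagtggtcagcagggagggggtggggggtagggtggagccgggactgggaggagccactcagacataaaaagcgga
Igf2, chr7:142666817-142667066, reverse strand: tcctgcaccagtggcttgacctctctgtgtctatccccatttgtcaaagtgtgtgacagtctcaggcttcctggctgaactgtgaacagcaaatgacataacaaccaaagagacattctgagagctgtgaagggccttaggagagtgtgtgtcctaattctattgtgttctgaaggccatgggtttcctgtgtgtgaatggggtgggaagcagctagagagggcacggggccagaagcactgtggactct
Aldh1a2, chr9:71215539-71215788, forward strand: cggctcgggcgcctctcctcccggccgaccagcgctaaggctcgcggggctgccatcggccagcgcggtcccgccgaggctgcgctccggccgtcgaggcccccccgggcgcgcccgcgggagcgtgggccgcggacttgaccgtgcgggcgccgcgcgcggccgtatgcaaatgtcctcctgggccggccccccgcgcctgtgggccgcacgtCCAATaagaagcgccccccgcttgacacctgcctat
On both strands, the TATAAA motif lies in 12.4% of 32851 windows of this length. The CCAAT motif lies in 33.8% of them, and for the GGGCGG motif this share is 32.7%. Windows of Slc6a13, Ptgds and Col1a2 are not shown, and those of Dcn, Lum and Col1a1 were not analysed here. A match describes letters and not a site in use.

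Ptgds (ENSMUSG00000015090, chr2:25466709-25470046, reverse strand), the lipocalin-type synthase that makes prostaglandin D2, had the highest level per length of the 8 genes. In cortex-like libraries it ranged from 334.516 to 686.002 with a median of 463.6, and in striatum-like libraries from 119.493 to 318.676 with a median of 181.158. Every cortex-like library was above every striatum-like one, with a ratio of medians of 2.56, but the log2 ratio of medians went from 1.35 to 1.76 on the deposited scale and to -0.93 with quantile normalization. By rank, Ptgds stood at place 231 of 47574 entries in cortex-like libraries (149 to 386) and at 179 in striatum-like ones (100 to 290). The sign of the difference between the classes thus depends on the scale. Across the 60 libraries, the 10 highest entries held 28.3% to 92.3% of all FPKM, and the part of this in the scales was not tested.

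Slc6a13 (ENSMUSG00000030108, chr6:121300227-121337733, forward strand), a transporter of GABA and taurine, was lower. It ranged from 1.83 to 7.98 with a median of 3.93 in cortex-like libraries and from 0.479 to 1.61 with a median of 0.865 in striatum-like ones. The classes did not overlap for this gene either (ratio 4.55). Over all 16076 entries tested this way, 36.2% did not overlap between the classes, and 2 of the 8 genes did not.

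The extracellular matrix genes overlapped. Dcn (ENSMUSG00000019929, chr10:97479500-97518162) and Lum (ENSMUSG00000036446, chr10:97565501-97572703), small leucine-rich proteoglycans that bind collagen fibrils, lie next to each other on the forward strand. Dcn ranged from 0.922 to 7.25 with a median of 4.39 in cortex-like and from 0.974 to 3.62 with a median of 1.46 in striatum-like libraries. Lum ranged from 0.132 to 1.62 (median 0.660) and from 0.0748 to 0.563 (median 0.283). In both genes most cortex-like libraries lay above all striatum-like ones, 23 of 30 for Dcn and 21 of 30 for Lum.

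Col1a1 (ENSMUSG00000001506, chr11:94936224-94953042, forward strand) and Col1a2 (ENSMUSG00000029661, chr6:4504814-4541544, forward strand) encode the chains of type I collagen. Col1a1 ranged from 0.174 to 2.06 with a median of 0.685 in cortex-like and from 0.511 to 1.94 with a median of 0.903 in striatum-like libraries. Col1a2 ranged from 1.35 to 4.74 (median 2.18) and from 0.908 to 3.13 (median 1.51). The chains therefore differed in the order of the classes, although the order of Col1a1 turned on the deposited and on the quantile scale. The spread was also unlike, since the coefficient of variation of Col1a1 was 61.4% in cortex-like and 30.2% in striatum-like libraries.

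Aldh1a2 (ENSMUSG00000013584), the dehydrogenase that makes retinoic acid from retinal, ranged from 0.165 to 1.86 (median 0.884) and from 0.173 to 1.13 (median 0.336). Igf2 (ENSMUSG00000048583), an imprinted growth factor, had a level per length next below that of Ptgds. It ranged from 10.28 to 32.9 with a median of 17.7 in cortex-like and from 6.45 to 44.2 with a median of 22.7 in striatum-like libraries, an order that turned on the deposited scale. Its striatum-like values spread more widely than its cortex-like ones, with 4 above every cortex-like library and 3 below, and its coefficient of variation was 42.4% against 25.4%. The deposited intervals had median widths to each side of 4.22% and 5.69% of the value for Ptgds, but 93.9% and 68.3% for Col1a1 and 40.6% and 64.6% for Lum, in cortex-like and striatum-like libraries. Levels of the low genes are thus loosely measured in single libraries.

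**Figure D1:**
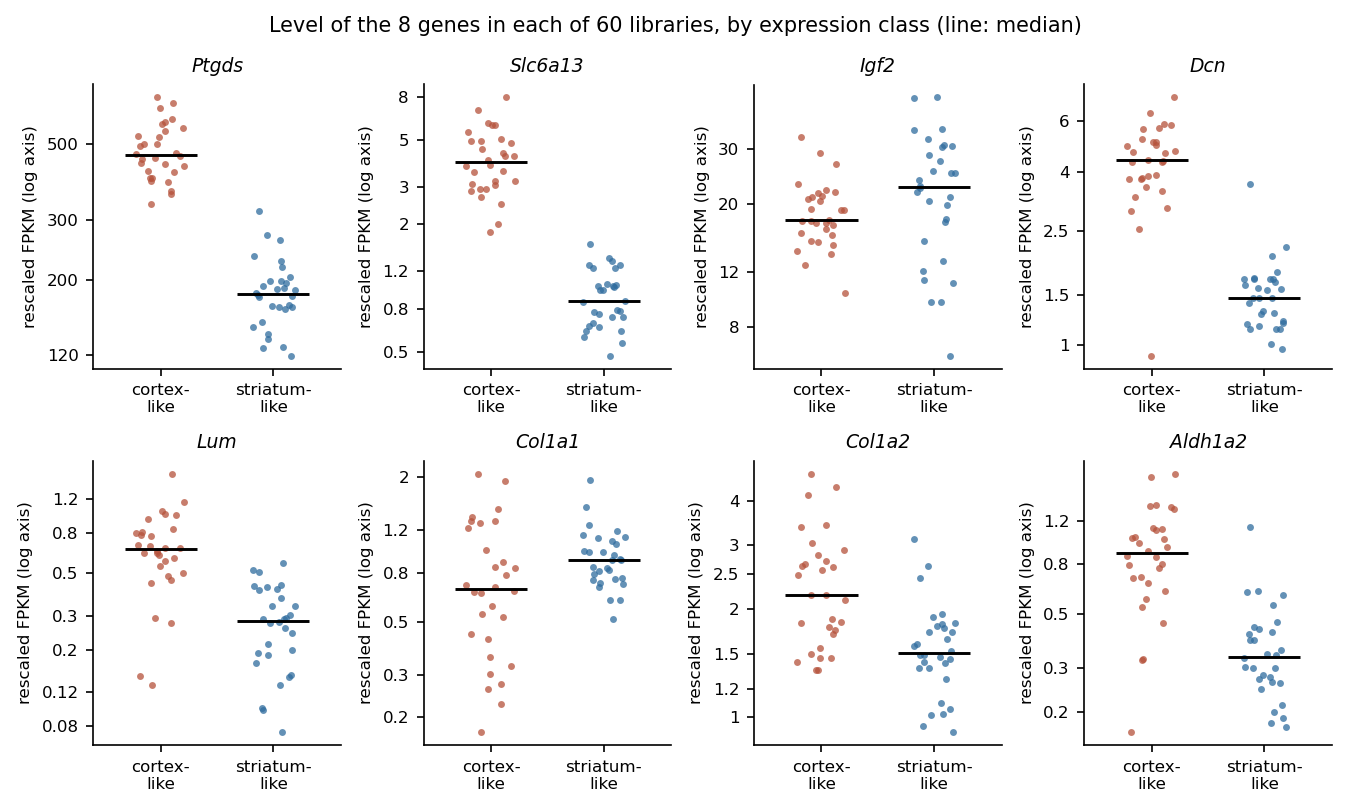
Level (rescaled FPKM, log axis) of each of the 8 genes in each of 60 libraries, split into 30 cortex-like and 30 striatum-like libraries, with the median as a line. Ptgds and Slc6a13 do not overlap between the classes on this scale, Ptgds turns around with quantile normalization (log2 ratio -0.93), and Igf2 spreads from 6.45 to 44.2 in striatum-like libraries.

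How far the 8 genes rise and fall together was asked within each class, over libraries that share a scaling factor each and of which each labelled mouse gave a pair. In bulk RNA, fewer cells of a type and less RNA per cell cannot be told apart. In cortex-like libraries the 28 pairs had a median Pearson r of 0.082 (from -0.39 to 0.56), and 18 were positive. A single pair passed by r, Slc6a13 and Col1a2 (r = 0.56, rho = 0.49, n = 30, permutation test, adjusted p = 0.0176 over 56 pairs, for rho 0.0529), and r was 0.45 without the 2 libraries farthest from the median. By rho, Slc6a13 and Igf2 passed instead (rho = 0.50, permutation test, adjusted p = 0.0481). Without the 2 cortex-like libraries that stand apart, both pairs passed by r, Slc6a13 and Igf2 with r = 0.63 (0.38 with them, permutation test, adjusted p = 0.00378 without) and Slc6a13 and Col1a2 with r = 0.52 (adjusted p = 0.0486). The r of Igf2 with Dcn, the lowest with them, was then -0.050. Those 2 libraries were picked from levels of the same genes, so this describes the pairs and does not test them. Ptgds passed with none of the other 7 genes.

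In striatum-like libraries 25 of 28 pairs were positive, the median r was 0.377 and 9 pairs passed by r and 5 by rho. The permutations take libraries as independent. With the mean of each labelled mouse as 1 value (n = 15) none of the 28 pairs passed in either class. The sex-linked transcripts matched between both libraries in only 16 of 30 labelled mice. These means can thus join libraries of different animals and cannot settle the dependence. No pair passed in the 15 libraries of each class labelled striatum, while 1 passed in each class among those labelled cortex. No filter on low levels was applied to the pairs, and Lum and Aldh1a2 had medians of only 0.283 and 0.336 in this class. Igf2, Lum and Col1a2 formed 3 of the 9 pairs that passed by r. Igf2 and Col1a2 had r = 0.72 and rho = 0.75 (n = 30, permutation test, adjusted p = 0.00112), and 0.69 without the 2 farthest libraries. Igf2 and Lum had r = 0.66 (rho = 0.68, permutation test, adjusted p = 0.00205, 0.61 without 2 libraries), and Lum and Col1a2 had r = 0.65 (rho = 0.69, permutation test, adjusted p = 0.00205, 0.64 without 2 libraries). Without striatum KO-line +/+ male 1 these 3 pairs had r of 0.75, 0.68 and 0.62, and with means of labelled mice 0.60, 0.52 and 0.55, where Igf2 with Col1a2 had an adjusted p of 0.298 by permutation test.

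Of the other 6 pairs, 4 hold Aldh1a2 or Ptgds. Dcn and Aldh1a2 had r = 0.55 and rho = 0.39 (n = 30, permutation test, adjusted p = 0.0382), and 0.37 without the 2 farthest libraries. Ptgds and Dcn had r = 0.48 and rho = 0.38, and Ptgds and Aldh1a2 had r = 0.49 and rho = 0.33 (n = 30, permutation test, adjusted p = 0.0384 each). All 3 rested on striatum KO-line +/+ male 1, which had the highest value of its class in Ptgds (319), Dcn (3.62) and Aldh1a2 (1.13). Without it r was 0.20 for Dcn and Aldh1a2, 0.25 for Ptgds and Dcn and 0.28 for Ptgds and Aldh1a2, and 3 of the 28 pairs passed. Without the 2 libraries farthest in Ptgds, the pairs of Ptgds had 0.14 and 0.22. The pairs of Col1a1 with Lum (r = 0.52, permutation test, adjusted p = 0.0265) and with Col1a2 (r = 0.54, 0.0248) had 0.48 and 0.50 without the 2 farthest libraries and did not pass without striatum KO-line +/+ male 1 (0.45 and 0.46), while Col1a1 with Aldh1a2 went from 0.50 to 0.061.

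**Figure D2:**
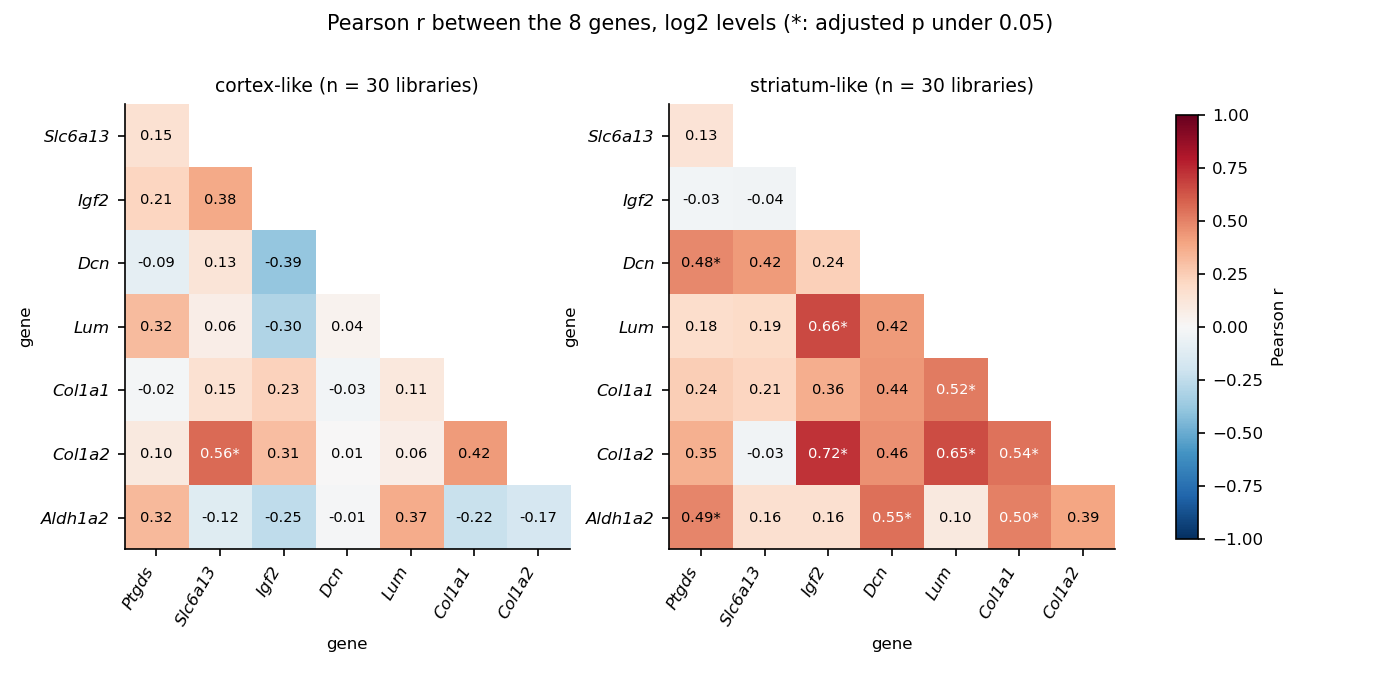
Pearson r between each pair of the 8 genes over 30 cortex-like (left) and 30 striatum-like (right) libraries, with log2 levels and a colour scale from -1 to 1. Stars mark adjusted p under 0.05, 1 pair on the left and 9 on the right, and the Ptgds pairs on the right fall below the threshold without 1 library.

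Against all entries, Dcn had 6 of the other 7 genes above the 95th percentile of its r with 15953 entries in striatum-like libraries, Col1a1 had 5, Lum, Col1a2 and Aldh1a2 had 4 each, Ptgds and Igf2 had 2 and Slc6a13 had 1. Without striatum KO-line +/+ male 1 the count was 1 for Dcn, 3 each for Col1a1, Lum, Col1a2 and Igf2 and 0 for Ptgds, Aldh1a2 and Slc6a13, so that of Dcn rests on that library. In cortex-like libraries the count was 0 to 2 for each gene, and 0 to 3 without the 2 that stand apart. This is a description that uses the same libraries, and the percentile is one of single entries.

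Igf2 followed the choroid plexus markers in striatum-like libraries. The 12 choroid plexus genes, Ttr (the transthyretin carrier of thyroid hormone) first among them with 76.6% of their sum, summed to levels of 87.4 to 2628 with a median of 1233, and none was at 0. With that sum Igf2 had r = 0.93 and rho = 0.95 (n = 30, permutation test, adjusted p = 0.00096 over 192 tests, from the smallest p the resamples can give), and 0.95 without the 2 farthest libraries. It was 0.97 in the 15 libraries labelled cortex, 0.88 in the 15 labelled striatum and 0.95 in the 24 of the KO line. All 12 genes had r above 0.5 with Igf2 (median 0.947), among them Slc4a5 (0.97), a bicarbonate transporter, Kcne2 (0.96), a potassium channel subunit named after its values were seen, and Otx2 (0.90, the lowest), a homeobox factor.

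In cortex-like libraries the same sum was 36.5 to 492 with a median of 50.0, and 6 of the 12 genes were at 0 in at least 1 library (Clic6, Folr1, Kcne2, Slc4a5, Otx2 and Kcnj13). The leading gene was Enpp2 with 47.2% of the sum, while Ttr was at 1.34 to 364. The sum had r = 0.082 with Igf2 there. Since the median of the sum lay near its lowest value, this r cannot decide whether Igf2 follows the choroid plexus there. Igf2 was at 10.28 to 32.9 in cortex-like libraries. In striatum-like libraries it was at 9.62 where Ttr was lowest (29.6, striatum Δ12-line Δ12/Δ12 female 3). At the next lowest Ttr (40.6, cortex KO-line +/+ female 2) it was at 6.45. Whether Igf2 has the same source in both classes was not tested. The other leptomeningeal genes of the 8 that passed with the choroid plexus sum in striatum-like libraries were Col1a2 (r = 0.69, rho = 0.72, permutation test, adjusted p = 0.00384) and Lum (r = 0.61, rho = 0.61, permutation test, adjusted p = 0.00614). With the choroid plexus sum held fixed, the r of Igf2 with Col1a2 went from 0.72 to 0.31, of Igf2 with Lum from 0.66 to 0.30 and of Lum with Col1a2 from 0.65 to 0.40, as a description with no test. Ptgds did not pass with that sum (r = -0.11).

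Ptgds moved instead with the oligodendrocyte genes, again in striatum-like libraries. These 9 genes of myelin summed to levels of 865 to 1409 there and of 379 to 707 in cortex-like libraries, with none at 0 in either. With the sum Ptgds had r = 0.69 and rho = 0.67 (n = 30, permutation test, adjusted p = 0.00192), and 0.67 without the 2 farthest libraries. It was 0.80 in those labelled cortex and 0.53 in those labelled striatum. All 9 genes were positive with Ptgds (median 0.610), led by Mobp (0.79), Mal (0.77) and Cldn11 (0.69), proteins of compact myelin and its junctions, with Opalin (0.26) the lowest. In cortex-like libraries Ptgds had r = 0.047 with the sum, and 4 of 9 genes were positive. With the oligodendrocyte sum held fixed in striatum-like libraries, the r of Ptgds with Dcn went from 0.48 to 0.29 and with Aldh1a2 from 0.49 to 0.44.

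**Figure D3:**
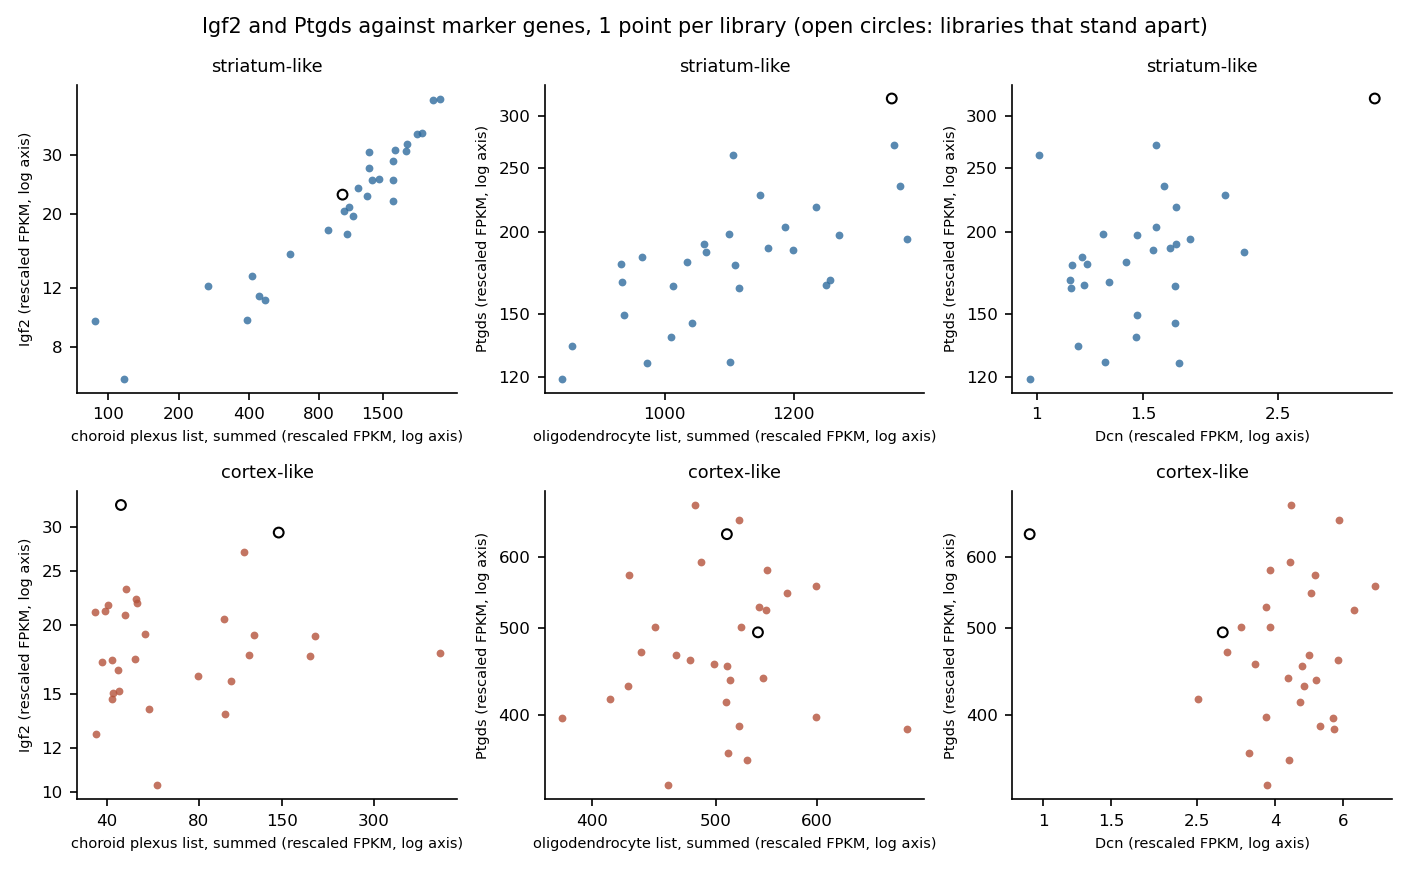
Igf2 against the summed choroid plexus list, Ptgds against the summed oligodendrocyte list and Ptgds against Dcn (left to right, rescaled FPKM, log axes), in striatum-like (top) and cortex-like (bottom) libraries with 1 point each. Igf2 rises along the choroid plexus sum at the top (r = 0.93). At the bottom r is 0.082, over a sum with a median of 50.0 that is led by Enpp2 (47.2%). Open circles are the libraries that stand apart.

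A further list of 27 leptomeningeal genes was summed at 161 to 279 in cortex-like and 172 to 284 in striatum-like libraries. In cortex-like libraries 9 of the 27 were at 0 in at least 1 library (Slc13a4, Foxc1, Foxd1, Tbx18, Bmp5, Gjb2, Crabp2, Itih2 and Cdh1), and in striatum-like ones 2 (Slc47a1 and Cdh1). Apod, a lipocalin that oligodendrocytes also make, held 51.4% of the striatum-like sum. Ptgds had r = 0.81 with that sum (rho = 0.80, n = 30, permutation test, adjusted p = 0.00096) and 0.86 with Apod itself, the entry of the highest r with Ptgds among all. Over the 19 members of the list above a mean of 0.5, 14 were positive with Ptgds with a median r of 0.233, Zic1 (0.63) and Itih5 (0.62) next after Apod and Lepr (-0.081) last. With Dcn all 19 were positive (median 0.303), led by Gjb2 (0.67), a connexin, with Slc13a3 (0.11) last. Without striatum KO-line +/+ male 1 the median was 0.121 with Ptgds and 0.237 with Dcn, and Gjb2 had 0.33 with Dcn. In cortex-like libraries the same list had 11 of 20 positive with Ptgds (median 0.013, Mgp 0.68 first, Nnat -0.32 last) and 9 of 20 with Dcn (median -0.031, Gjb2 0.64 first, 0.29 without the 2 libraries that stand apart, Lepr -0.67 last).

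Lists of pathway genes were set mainly against Dcn or Ptgds, also where the pathway is that of another gene, such as Aldh1a2, Slc6a13 or Col1a1. Covariation was uneven, and such values do not describe how that other gene moved with its own pathway. In striatum-like libraries the 4 other proteoglycans measured were all positive with Dcn (median 0.478), Fmod (0.68) and Ogn (0.52) first, which were 0.38 and 0.35 without striatum KO-line +/+ male 1 (median 0.363). Of 17 collagen and processing genes, 11 were positive with Dcn (median 0.107, 0.0056 without that library), Sparc (0.46), the collagen-binding matrix protein, first and Col12a1 (-0.24) last. Of 15 genes of the retinoic acid pathway, 8 were positive with Ptgds (median 0.054, -0.034 without that library), Aldh1a1 (0.68), a sister enzyme of Aldh1a2, first and the receptor Rxrg (-0.43) last. Of 7 genes of prostaglandin synthesis and breakdown, 6 were positive with Ptgds (median 0.221), Ptges3 (0.49) first and the cyclooxygenase Ptgs1 (-0.14) last. Of 10 IGF system genes, 2 were positive with Ptgds (Igf1 0.49 first, Igfbp4 -0.49 last), and of 6 transporters 4 were (Slc6a11 0.59 first, Slc6a6 -0.54 last). With Igf2, Igfbp2 (0.93), an IGF binding protein, stood first of the IGF system. Slc13a4 (0.96), a sulfate transporter, stood first of the list of further leptomeningeal genes. Igf2 had r = 0.93 with the choroid plexus sum in the same libraries, and whether Igfbp2 and Slc13a4 follow that sum was not tested.

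The remaining marker lists gave these medians of r with Ptgds and then Dcn in striatum-like libraries. They were 0.117 and 0.280 over 8 endothelial genes, 0.040 and 0.230 over 8 mural genes, 0.357 and 0.267 over 7 astrocyte genes, 0.071 and 0.109 over 6 microglial genes and -0.034 and 0.0019 over 6 ependymal genes. They were -0.285 and -0.355 over 5 blood genes, -0.286 and -0.290 over 6 genes of cortical neurons and -0.453 and -0.241 over 8 genes of striatal neurons. Without striatum KO-line +/+ male 1, those of Dcn went to 0.092 for astrocyte, 0.197 for microglial, 0.079 for ependymal and -0.051 for striatal neuron genes, and those of Ptgds to -0.056 for mural, 0.142 for microglial and 0.018 for ependymal genes. Border macrophage genes summed to 0.833 to 2.17 and were too low there for a median. Of 96 tests of a gene against a summed list per class, 8 passed by r in striatum-like libraries. The ones not yet given were Col1a2 with the further leptomeningeal list (r = 0.55, rho adjusted p = 0.0818), Igf2 with the ependymal list (r = 0.55, rho adjusted p = 0.109) and Slc6a13 with the blood list (r = -0.55, rho adjusted p = 0.0635), each at an adjusted p of 0.0354 by permutation test for r. Ptgds with the endothelial sum passed by rho and not by r (rho = 0.57, r = 0.46, permutation test, adjusted p = 0.0387 and 0.0970). So did Igf2 with the astrocyte sum (rho = -0.55, r = -0.51, permutation test, adjusted p = 0.0496 and 0.0592). In cortex-like libraries 1 passed, Aldh1a2 with the mural list (r = 0.57, rho = 0.54, n = 30, permutation test, adjusted p = 0.0314, for rho 0.0514, 0.48 without the 2 farthest libraries). The blood sum was 693 to 2355 in cortex-like and 119 to 206 in striatum-like libraries, and its part in the levels above was not tested.

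The entries most alike each gene in striatum-like libraries, without a test and over 30 libraries, were Apod (0.86), Fmnl2 (0.81) and Mobp (0.79) for Ptgds, and Slc4a5 (0.97), Abca4 (0.97) and Cldn2 (0.96) for Igf2. For Dcn they were Laptm4a (0.76), Il6st (0.71) and Fmod (0.68), which had 0.61, 0.46 and 0.38 without striatum KO-line +/+ male 1. The highest was Gas6 (0.83) for Col1a2, Sntb1 (0.79) for Lum, Crtap (0.69) for Col1a1, Cnn3 (0.66) for Aldh1a2 and RP23-200D13.1 (0.65) for Slc6a13. In cortex-like libraries it was Mgp (0.68) for Ptgds, Fn1 (0.71) for Igf2 and 1700049G17Rik (0.85, and 0.63 without the 2 libraries that stand apart) for Dcn.

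Whether the genes moved with the Htt alleles was asked by label, each labelled group of 6 against the 6 +/+ libraries of its line and tissue, which Δ12/+ and Δ12/Δ12 share. Of the 6 comparisons, 1 gene passed in 1. Ptgds was at 178 to 529 (median 309) in libraries labelled striatum Δ12/Δ12 and at 441 to 686 (median 515) in +/+, and the groups overlapped. Its log2 difference was -0.82 (SE 0.20, limma, adjusted p = 0.0319 over 15467 genes), and 0.52 with quantile normalization. In this comparison 28.3% of all genes were called, against 1 of 8 here (5 at an unadjusted p under 0.05).

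That call moved with the class. The labelled females of Δ12/Δ12, which are striatum-like, had Ptgds at 186, 178 and 262, and the labelled males, which are cortex-like like all +/+, at 414, 529 and 357. With the cortex-like libraries only, the log2 difference was -0.39 (limma, adjusted p = 0.525), and with class as a covariate it was -0.39 (adjusted p = 0.459). Leaving out 1 library at a time, the call was lost in 6 of 12 fits (adjusted p from 0.0219 to 0.0836), each time a labelled female of either group was left out. In the same comparison, where 28.3% of all genes were called, 4 of 20 further leptomeningeal genes were lower and 1 was higher. The median log2 difference of the 20 was 0.0099. Among the lower ones were the matrix protein Mgp (log2 difference -1.36, limma, adjusted p = 0.0292), Slc47a1 (-0.84, 0.0337) and Itih2 (-0.73, 0.0389).

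**Figure D4:**
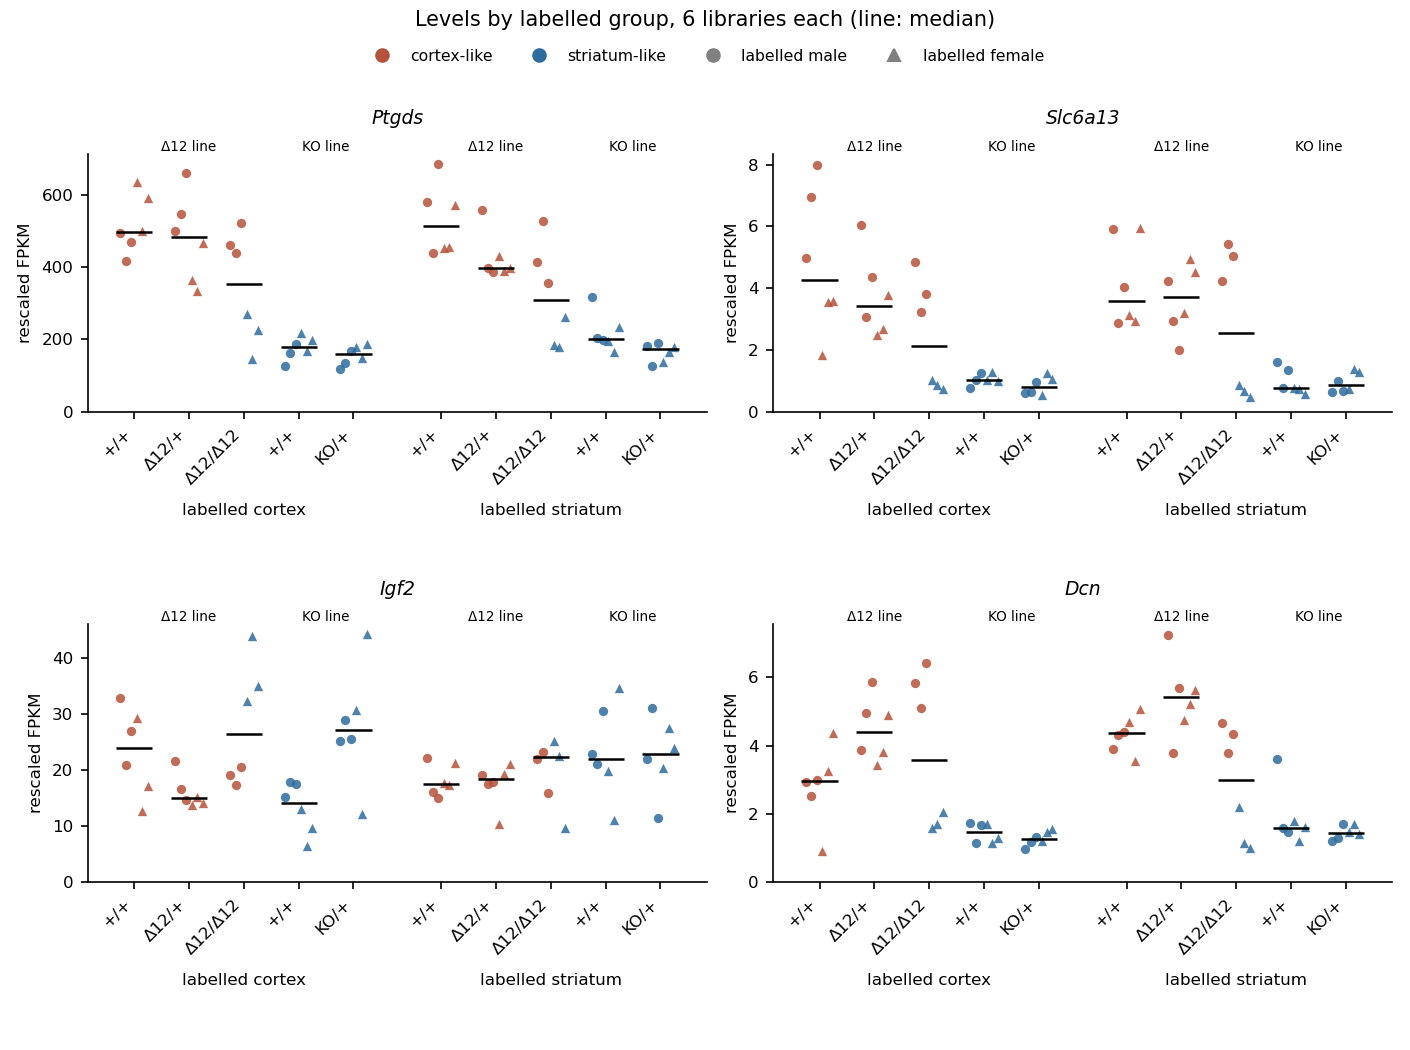
Levels (rescaled FPKM) of Ptgds, Slc6a13, Igf2 and Dcn in each of the 10 labelled groups of 6 libraries, with the median as a line, colour for class and shape for labelled sex. In Δ12/Δ12 the labelled females sit with the striatum-like KO line and the labelled males with the other Δ12-line libraries in Ptgds, Slc6a13 and Dcn.

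The other genes of this comparison did not pass. Slc6a13 was at 0.479 to 5.45 against 2.88 to 5.94 (log2 difference -0.84, limma, adjusted p = 0.0993), Dcn at 1.01 to 4.65 against 3.55 to 5.08 (-0.68, 0.0635), Aldh1a2 at 0.173 to 1.11 against 0.577 to 1.12 (-0.44, 0.0670) and Lum at 0.132 to 0.693 against 0.292 to 1.05 (-0.42, 0.0974). Slc6a13 and Dcn were at 0.22 and 0.013 on the log2 scale within the cortex-like libraries. Over all genes 28.3% were called, and their number went from 4381 to 10 in cortex-like libraries only, to 21 with class as a covariate and to 5 with the replicate block. Beside that, of the pathway lists 1 of 5 proteoglycans was higher (Prelp 1.18), 1 of 14 collagen and processing genes higher and 2 lower (P4hb -0.63, Col12a1 -0.60), 3 of 15 retinoic acid genes higher and 2 lower (Rarb 1.70), 2 of 9 prostaglandin genes lower (Cbr1 -1.10, Ptgs2 -1.27), 3 of 10 IGF system genes higher and 2 lower (Igfbp4 -0.60, Igfbp6 -1.61) and 5 of 6 transporters higher (Slc6a6 0.97). Genes of striatal neurons were higher in 5 of 8 and blood genes lower in 4 of 5. Within Δ12/Δ12, class and labelled sex cannot be told apart, and the part of each was not tested.

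For labels of cortex Δ12/Δ12, 0.924% of 15696 genes were called and none of the 8 by limma (3 at an unadjusted p under 0.05). Slc6a13 was at 0.729 to 4.84 against 1.83 to 7.98 (log2 difference -0.99, limma, adjusted p = 0.0565) and Ptgds at 145 to 524 against 417 to 637 (-0.71, 0.0959). The difference of Ptgds was 0.041 without the striatum-like libraries and 1.16 with quantile normalization. Col1a2 had a log2 difference of -0.51 (limma, adjusted p = 0.108).

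Neither Δ12/+ comparison called one of the 8 genes by limma. In cortex, 0.0662% of 15095 genes were called, and 4 of the 8 were under an unadjusted p of 0.05. Col1a2 was at 1.36 to 2.71 against 1.46 to 4.37 (log2 difference -0.68, limma, adjusted p = 0.283), Dcn at 3.43 to 5.87 against 0.922 to 4.37 (0.65, 0.562), Col1a1 at 0.174 to 0.846 against 0.303 to 2.06 (-0.59, 0.565) and Igf2 at 13.8 to 21.7 against 12.7 to 32.9 (-0.47, 0.568). Ranges overlapped in each, and the +/+ group holds both cortex-like libraries that stand apart. In striatum, 0.00663% of 15077 genes were called and Ptgds alone was under an unadjusted 0.05 (387 to 557 against 441 to 686, log2 difference -0.31, limma, adjusted p = 1.00, and 0.16 with quantile normalization).

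For labels of KO/+, 6 of the 8 genes passed the filter on low levels, Lum and Aldh1a2 being too low, and none was called by limma in either tissue. In cortex, with 0.0885% of 15820 genes called, Igf2 was at 12.2 to 44.2 (median 27.1) against 6.45 to 17.9 (median 14.1) in +/+, with a log2 difference of 1.02 (SE 0.29, limma, adjusted p = 0.188). The choroid plexus sum was at 269 to 2628 in KO/+ and 117 to 1053 in +/+, and the median log2 difference of its 12 genes was 1.17 with none called. Its part in the Igf2 difference was not tested. Col1a2 had a log2 difference of 0.25 (adjusted p = 0.354). In striatum, with 6.91% of 15808 genes called, Ptgds was at 127 to 192 (median 173) against 166 to 319 (median 200), with a log2 difference of -0.40 (SE 0.15, limma, adjusted p = 0.152). There 7 of 9 oligodendrocyte genes were lower, Mag by -0.43 and Cldn11 by -0.33 on the log2 scale (limma, adjusted p = 0.00581 and 0.00715), and 2 of 7 astrocyte genes were lower too (Aqp4 -0.58, Gjb6 -0.90), while 6 of 8 striatal neuron genes were higher (Penk 0.54, Ppp1r1b 0.52). The part of these markers in the Ptgds value was not tested. Zic1 (-0.91, adjusted p = 0.00291) was the 1 of 19 further leptomeningeal genes that was lower. Whether the effect of a label differed between the labelled tissues was tested for 22 pairs of gene and allele by limma, and none passed (lowest adjusted p = 0.383).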

How the data were processed

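RNA-Seq was measured in 60 libraries, grouped by their labels. The authors deposited FPKM per gene entry with interval bounds, normalized for length and library size. Per the labels, RNA was depleted of ribosomal RNA and libraries were directional, and the submitters' notes name bcl2fastq 2.20, Trimmomatic 0.30, TopHat2 2.0.14, SAMtools 1.3, HTSeq 0.6.1p1 and GRCm38.p4. The program behind the FPKM is not given in the sources used here. The bounds of single-transcript genes (2000 nucleotides or more) gave the depth.

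Of 47597 entries, 23 with a status other than OK were left out. FPKM were rescaled by the median ratio over 13235 entries (factors 0.761 to 1.38). Tests used log2(rescaled FPKM + 0.5), which understates changes of low genes. Comparisons of labels took entries with a mean of at least 0.5 and used limma 3.58.1 in R 4.3.3 with labelled sex. Their Benjamini-Hochberg adjustment was over all genes tested. Tests of the 8 genes in pairs or against summed lists applied no filter on low levels. Correlations used 100000 permutations of libraries (numpy 2.4.6, scipy 1.17.1 in Python 3.11.15). The scripts were tested on simulated data. The genes and lists were chosen with earlier results of these data known. Genes named are the 8, Slc17a7, the 3 entries most alike each, the ends of each list by r with Ptgds or Dcn, and up to 3 called genes per list. In each comparison of labels the replicates are labelled mice, while correlations run over libraries, 2 to a labelled mouse, and p-values measure the spread between these samples. For 1 library of striatum KO/+, the title names the other line, and the genotype label was followed. The alternatives were other scalings, pseudocount, covariates, subsets of libraries, a replicate block and each library left out in turn.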

Additional observations from a re-analysis of the deposited data

Results flagged for a closer look

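Within labelled groups of 6, 8 of 80 combinations of gene and group had 1 library far from the rest. Chance alone gives about 1 in 20 for normally distributed values. Levels were taken here without logs, and the Δ12/Δ12 groups hold both classes, so that rate is only a rough guide. Striatum KO-line +/+ male 1 was high in Dcn (3.62, the next 1.80) and in Aldh1a2 (1.13, the next 0.463). Ptgds was at 557 in striatum Δ12-line Δ12/+ male 1 (the next 432). Igf2 was at 21.7 in cortex Δ12-line Δ12/+ male 1 (the next 16.6) and at 10.28 in striatum Δ12-line Δ12/+ female 1, the lowest of its group (the next 17.6). Col1a1 was at 1.496 in striatum KO-line KO/+ male 1 (the next 0.977), Col1a2 at 2.71 in cortex Δ12-line Δ12/+ male 2 (the next 1.70) and Aldh1a2 at 0.6004 in cortex KO-line KO/+ female 1 (the next 0.344). All values are rescaled FPKM.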

How the results depend on the processing

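Of the values of single genes, 401 kept their sign and side of the threshold under the alternatives tried, 36 changed sign, 24 lost and 14 gained the threshold and 1 moved. In labelled striatum Δ12/Δ12 against +/+, 1 of the 8 genes was called, against 3 on the deposited scale or with all libraries of the labelled tissue in the fit, 0 with quantile normalization, the replicate block, no sex covariate, the class as a covariate or cortex-like libraries only, and 0 to 2 with 1 library left out. In labelled cortex Δ12/Δ12 it was 0, against 3 with all libraries and 0 to 1 with 1 library left out. The replicate block changed no other call of the 8 genes, and the labels share only a number, since same-numbered libraries deviated from their group means with correlations of -0.22 to 0.157. Over all genes, calls in striatum Δ12/Δ12 were 4381, against 5 with the replicate block, 9 with no sex covariate, 10 in cortex-like libraries only, 21 with class as a covariate, 2085 with no filter, 8067 with all libraries and 5 to 6208 with 1 library left out. In cortex Δ12/Δ12 they were 145, against 9 (block), 10 (no sex covariate), 12 (class), 25 (no filter), 60 (quantile), 90 (pseudocount), 7972 (all libraries) and 12 to 3844 (1 left out). In cortex Δ12/+ they were 10, against 3 (block) to 53 (all libraries), in cortex KO/+ 14, against 0 (block) to 110 (deposited), in striatum KO/+ 1093, against 135 (all libraries), 302 (block) and 306 (deposited), and in striatum Δ12/+ 1, against 0 to 2. Class could be a covariate or be held to a single one only where both classes occur. The cause was not tested.

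The log2 difference of Ptgds turned with quantile normalization to 1.16 (cortex Δ12/Δ12), 0.16 (striatum Δ12/+) and 0.52 (striatum Δ12/Δ12), and to 0.041 in cortex Δ12/Δ12 with class as a covariate or without striatum-like libraries. In striatum Δ12/Δ12, class as a covariate or cortex-like libraries only gave 0.013 for Dcn and 0.22 for Slc6a13. The log2 ratio of class medians turned to 0.020 for Igf2 and Col1a1 on the deposited scale, and to -0.93 for Ptgds and 0.037 for Col1a1 with quantile normalization, alternatives added after the data were seen.

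Of the pairs of Ptgds, 0 passed in cortex-like libraries and 1 on the deposited scale. In striatum-like libraries 2 passed, against 3 on the deposited scale, 1 with quantile normalization or deviations from group means, and 0 with a pseudocount of 0.1, in libraries labelled cortex or striatum only, with means of labelled mice, without the 2 farthest libraries or without the libraries that stand apart. Of all 28 striatum-like pairs 9 passed, against 15 on the deposited scale, 6 with a pseudocount of 0.1 or in the KO line only, 5 with deviations, 3 without the library that stands apart, 1 in libraries labelled cortex and 0 in those labelled striatum or with means of labelled mice. Signs turned in cortex-like libraries with Dcn (deposited 0.034, quantile 0.13, deviations 0.17, without those that stand apart 0.22), Col1a1 (deposited 0.023, pseudocount 0.024, labelled cortex 0.10, mouse means 0.32, without 2 libraries 0.080, without those that stand apart 0.037), Slc6a13 (quantile -0.32, labelled cortex -0.033) and Col1a2 (quantile -0.33). In striatum-like libraries they turned with Igf2 (deposited 0.045, quantile 0.064, labelled cortex 0.060, KO line 0.0041), Lum (deviations -0.14, without 2 libraries -0.026), Slc6a13 (without 2 libraries -0.15, without the library that stands apart -0.060) and Col1a1 (-0.028 and -0.029 likewise). The interval of Col1a1 reached 0 in 14 cortex-like and 6 striatum-like libraries, that of Lum in 2 and 5 and that of Aldh1a2 in 0 of either. The part of depth in these widths was not tested.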
